A study of Drosophila melanogaster with 17 samples.

Results

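Intestinal progenitor cells labelled as overexpressing Sox100B were compared with intestinal progenitor cells in which, by the labels, RNA interference depleted it. The groups were taken from the sample labels and hold 6 of the 17 RNA sequencing libraries of the series, 3 labelled Sox100B-OE (overexpression) and 3 labelled Sox100B-RNAi. The other 11 libraries are wild type, 5 of progenitors, 3 of enteroendocrine cells and 3 labelled EC, and enter below only as levels set side by side. All 6 libraries came from adult Drosophila melanogaster at day 3. Each was made from RNA of about 10000 GFP-labelled midgut cells that were sorted and whose RNA was amplified. The labels do not name the driver, the RNAi line, the transgene, the strain or the sex, and they do not say whether the 3 libraries of a group came from separate flies, so the p-values measure the spread between these libraries, which may be technical.

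Sox100B is the SoxE-type transcription factor of the fly, a DNA-binding protein of the HMG-box family. In the adult midgut, intestinal stem cells divide to renew themselves and to supply enteroblasts, which mature into absorptive enterocytes, and enteroendocrine cells (EEs), which secrete peptide hormones. Stem cells carry the Notch ligand Delta, and Notch signalling in the neighbouring daughter cell drives the enteroblast fate, while EGF receptor and JAK/STAT signalling govern stem cell division and differentiation. In sorted bulk samples such as these, fewer cells of a type and less RNA per cell cannot be told apart.

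Expression was given in RPKM, a read count scaled to gene length and to the depth of the library. The implied depth was 17373559 to 29399838 reads per library. Mitochondrial features took 17.1 to 31.8% of the assigned reads, and the highest share was in Sox100B-RNAi replicate 1. Pearson's r of log2(RPKM + 1) across genes, which are not independent replicates, was 0.969 to 0.982 between libraries labelled Sox100B-OE, 0.952 to 0.962 between Sox100B-RNAi libraries and 0.846 to 0.881 between the groups. Markers of other tissues varied. The visceral muscle list summed to 109 to 156 RPKM in the libraries labelled Sox100B-OE and 71.4 to 86.8 RPKM in the Sox100B-RNAi libraries, most of it from the tropomyosin gene Tm1, which non-muscle cells also express. Of its 15 genes 4 passed the filter on low values, all 4 were above 0 in fold change with an unadjusted p below 0.05, and 1 was called, the muscle protein gene bt, at 1.65, 1.61 and 2.20 against 0.172, 0.0987 and 0.103 RPKM, while the myosin heavy chain gene Mhc was at most 0.0492 RPKM in every library. The Malpighian tubule list summed to 6.61 to 13.6 and 1.78 to 3.96 RPKM, and of the 2 genes tested the chloride channel gene ClC-a rose, at 7.14, 4.32 and 9.60 against 0.0820, 0.192 and 0.0693 RPKM, and NtR fell. The part of such cells in the results was not tested. No gene of the trachea list passed the filter, and the haemocyte gene eater was at most 0.0162 RPKM. The summed level of the haemocyte list was 4.60 to 6.03 RPKM in the libraries labelled Sox100B-OE and 2.02 to 5.88 RPKM in the Sox100B-RNAi libraries, and that of the fat body list was 2.79 to 3.96 and 0.998 to 1.33 RPKM.

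Sox100B itself (FBgn0024288; BDGP6 chromosome arm 3R, 31065253 to 31083407) was measured first as a check of the labels. It stood at 105, 85.5 and 144 RPKM in the 3 libraries labelled Sox100B-OE and at 32.1, 34.4 and 20.3 RPKM in the 3 Sox100B-RNAi libraries. The groups did not overlap, and the difference on the log2 scale was 1.91 (SE 0.28, adjusted p = 0.00127 by limma). The exact 2-sided permutation test gave p = 0.1, the smallest value that 3 libraries against 3 allow. In wild type progenitors the level was 69.7 to 183 RPKM, a range that holds all 3 libraries labelled Sox100B-OE and lies above all 3 Sox100B-RNAi libraries. The wild type libraries were tabulated in another way, with mitochondrial genes at 0, so in that last comparison treatment and batch cannot be told apart, and "labelled Sox100B-OE" is used throughout. Sox21a, another Sox gene of midgut progenitors, was at 49.96, 38.2 and 36.4 against 26.5, 18.8 and 23.1 RPKM and was not called (limma adjusted p = 0.0215).

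Of 8849 features tested, 1419 were called, which is 16.0% of them. A call needed an adjusted p from limma of less than 0.01 together with a log2 fold change beyond 0.5 in either direction. Of the 1419 called features, 927 (10.5% of those tested) were higher and 492 (5.56%) were lower in the libraries labelled Sox100B-OE. The groups did not overlap for 45.5% of the features tested, and for each of the 1419 called. Fold changes are on the log2(RPKM + 1) scale, which understates the change of low genes. The median over all features tested was -0.04, and 113 features rose and 36 fell by more than 3 on this scale. Leaving out a library labelled Sox100B-OE left 509 to 529 calls. With only 2 such libraries a feature present in that group alone cannot reach the 3 libraries that the filter asks for, and 1124 of the 1419 called features were still tested. A feature under 1 RPKM in all 3 libraries of a group passed the filter only through the other group. Such a feature could differ only toward that other group, which bears on the list counts below. Leaving out Sox100B-RNAi replicate 3 left 870 calls, and leaving out replicate 1 or 2 of that group left 1282 or 1259.

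**Figure D1:**
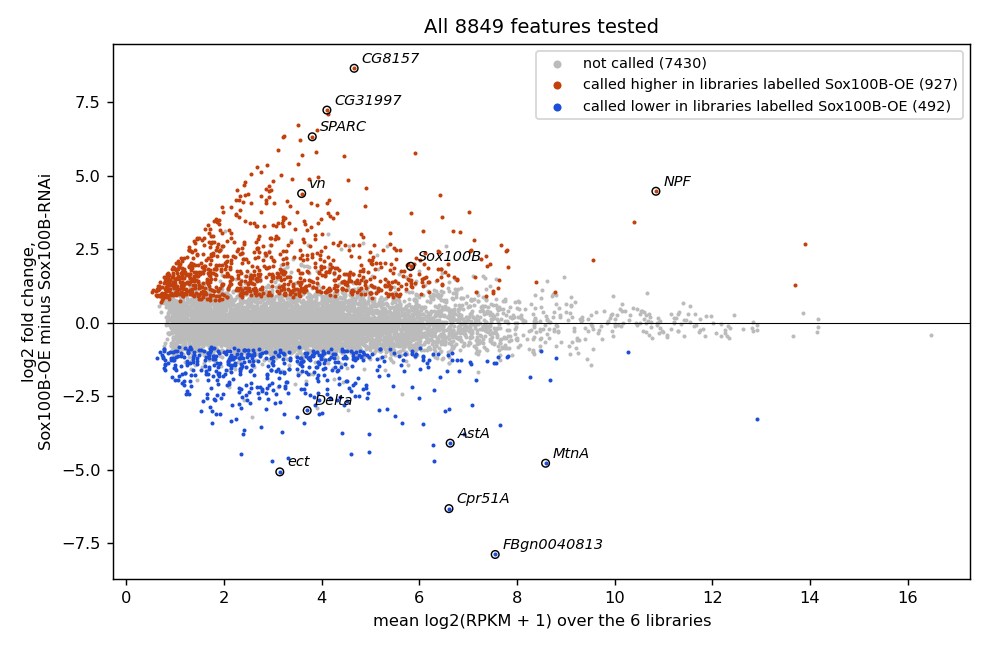
Log2 fold change (libraries labelled Sox100B-OE minus Sox100B-RNAi) against the mean log2(RPKM + 1) of the 6 libraries for the 8849 features tested, 1 point per feature. The 927 features called higher and the 492 called lower are coloured, CG8157 is highest at 8.65 and FBgn0040813 lowest at -7.88, and NPF rises by 4.47 at the right of the plot, where levels are high.

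The peptide hormone genes moved in both directions. Of the 12 hormones on the list, all tested, 4 were called higher and 5 lower in the libraries labelled Sox100B-OE, against 10.5% and 5.56% of all features. Every hormone of the list is given here, so that several were named after their values were seen. NPF (FBgn0027109; 3R, 16609220 to 16611325), which encodes neuropeptide F, was the most abundant of them in the libraries labelled Sox100B-OE, whereas AstC was above it in each Sox100B-RNAi library. It reached 6598, 10918 and 8974 RPKM in the libraries labelled Sox100B-OE and 494, 1609 and 74.3 RPKM in the Sox100B-RNAi libraries. The groups did not overlap, although the Sox100B-RNAi libraries spread widely, with replicate 3 far below the others, and the difference on the log2 scale was 4.47 (SE 0.91, adjusted p = 0.00673 by limma). The NPF call was lost when any library labelled Sox100B-OE was left out (adjusted p = 0.0200 to 0.0254), without Sox100B-RNAi replicate 1 (0.0143) and without a filter (0.0258), while the fold change stayed between 3.28 and 5.49 over all alternatives.

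Orcokinin, a gene of orcokinin peptides, stood at 2779.8, 5903 and 5121 RPKM against 287, 738 and 329 RPKM. Every library labelled Sox100B-OE was above every Sox100B-RNAi library, and the difference on the log2 scale was 3.41 (SE 0.41, adjusted p = 4.33e-04 by limma). Tk, the tachykinin gene, was at 238, 428 and 347 against 83.3, 143 and 51.6 RPKM. Its groups were also apart, and the difference on the log2 scale was 1.94 (SE 0.38, adjusted p = 0.00540 by limma), but the call was lost when any library except Sox100B-RNAi replicate 2 was left out (adjusted p up to 0.0253) and without a filter. ITP, the ion transport peptide gene, was at 76.5, 65.7 and 54.1 against 14.2, 15.3 and 12.96 RPKM with a change of 2.12 on the log2 scale (SE 0.20, adjusted p = 1.44e-04 by limma). Exonic bases of ITP overlap a gene on the opposite strand, and whether reads were counted by strand is not given in the sources used here, so its reads cannot be assigned with certainty.

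The hormones that fell included the allatostatin A gene AstA (FBgn0015591; 3R, 24760530 to 24765071), at 32.3, 15.7 and 23.8 RPKM in the libraries labelled Sox100B-OE and 372, 438 and 422 RPKM in the Sox100B-RNAi libraries. Every Sox100B-RNAi library was far above every library labelled Sox100B-OE, and the difference on the log2 scale was -4.10 (SE 0.27, adjusted p = 1.76e-05 by limma). CCHa1 (FBgn0038199; 3R, 14092504 to 14096835), which encodes CCHamide-1, was at 27.4, 7.72 and 24.5 against 287, 371 and 336 RPKM, with a change of -4.16 on the log2 scale (SE 0.42, adjusted p = 1.78e-04 by limma). CCHa2, the gene of the related CCHamide-2, was at 96.5, 31.4 and 68.1 against 1154, 614 and 417 RPKM, with a change of -3.47 on the log2 scale (SE 0.47, adjusted p = 8.54e-04 by limma). For each of these genes every library labelled Sox100B-OE was below every Sox100B-RNAi library. Mip, the myoinhibitory peptide gene, was at 4.38, 1.65 and 5.01 against 25.6, 17.6 and 16.6 RPKM (log2 fold change -2.22), and sNPF, the short neuropeptide F gene, was at 0.107, 0.188 and 0.218 against 4.06, 2.12 and 1.83 RPKM (log2 fold change -1.60). Both were called, at limma adjusted p = 0.00144 and 0.00127, and the sNPF call was lost without Sox100B-OE replicate 1 (adjusted p = 0.0116) and the Mip call in a fit of all 17 libraries (adjusted p = 0.0244).

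Without Sox100B-OE replicate 2 or 3 or Sox100B-RNAi replicate 1, 2 hormones were called higher. The other 3 hormones were not called. AstC, the allatostatin C gene, stood at 1028, 2092 and 1956 RPKM in the libraries labelled Sox100B-OE and 1251, 1656 and 1117 RPKM in the Sox100B-RNAi libraries, and the groups overlapped. Dh31 was at 13.1, 18.5 and 8.42 against 12.1, 26.6 and 13.8 RPKM and also overlapped. CCAP was at 1.54, 4.10 and 3.08 against 0.595, 1.04 and 0.545 RPKM, apart but with an adjusted p of 0.0139, and it was called with the replicate block, in a fit of all 17 libraries and without Sox100B-OE replicate 1 (limma adjusted p down to 0.00435).

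**Figure D2:**
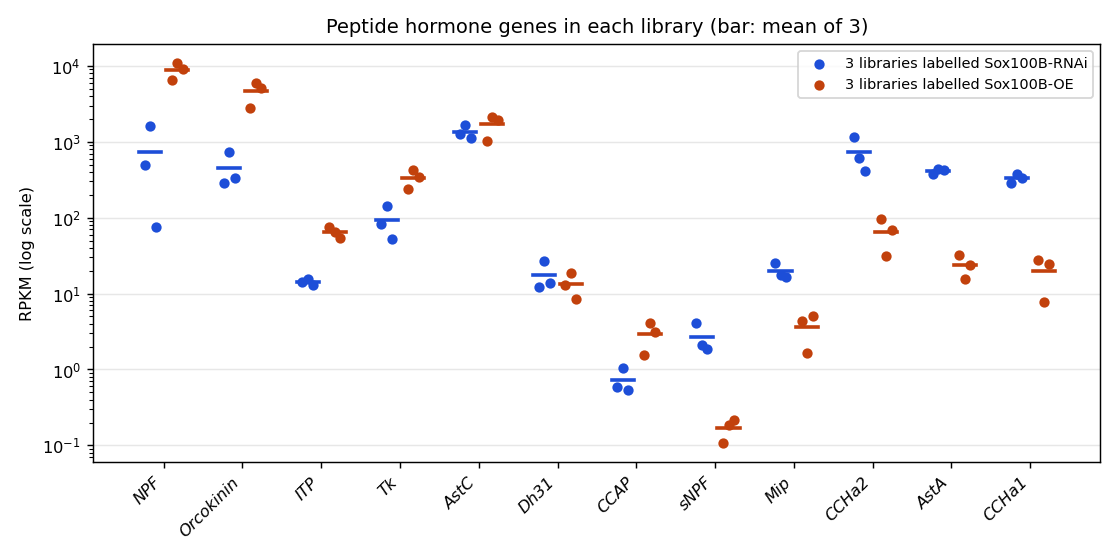
RPKM (log scale) of the 12 peptide hormone genes in each library, blue for the 3 Sox100B-RNAi libraries and orange for the 3 labelled Sox100B-OE, with a bar at the mean of 3. NPF, Orcokinin, ITP and Tk lie higher and sNPF, Mip, CCHa2, AstA and CCHa1 lower in the libraries labelled Sox100B-OE, while AstC and Dh31 overlap.

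Transcription factors and regulators of the EE lineage moved in both directions as well. Of the 13 tested, 3 were higher and 4 lower (23.1% and 30.8%, against 10.5% and 5.56% of all features). tap, which encodes a bHLH factor related to neurogenin, was at 14.7, 18.97 and 22.6 against 1.85, 3.74 and 1.18 RPKM, with a change of 2.66 on the log2 scale (SE 0.30, adjusted p = 3.53e-04 by limma). Fer1, another bHLH gene, was at 0.601, 0 and 0.736 against 10.3, 5.49 and 7.54 RPKM and was near 0 in each library labelled Sox100B-OE, with a change of -2.60 on the log2 scale (SE 0.28, adjusted p = 2.55e-04 by limma). phyl, an adaptor for protein degradation that acts early in the neural and EE lineages, was at 0, 0.0939 and 0.174 against 2.10, 5.36 and 4.27 RPKM, with a change of -2.11 on the log2 scale (SE 0.26, adjusted p = 5.58e-04 by limma). drm, a zinc finger gene, was at 7.34, 5.56 and 7.44 against 22.7, 23.7 and 39.8 RPKM (log2 fold change -1.90, adjusted p = 8.60e-04 by limma). The homeobox gene mirr, known as a requirement of Tk-positive EEs, was at 2.16, 1.996 and 2.11 against 0.458, 0.786 and 0.551 RPKM (log2 fold change 0.96), and Ptx1, known as a requirement of AstC-positive EEs, was at 13.7, 14.8 and 14.8 against 22.2, 11.6 and 32.3 RPKM and overlapped. The general EE determinant pros was low and not called, at 2.62, 2.72 and 3.52 against 2.12, 2.19 and 1.98 RPKM, and its exonic bases overlap a gene on the opposite strand. hbn fell, at 0.0485, 0.0640 and 0.119 against 1.98, 1.10 and 2.63 RPKM. NK7.1, overlapped by a gene on the opposite strand, rose by 1.10 on the log2 scale. Both calls were lost without any one library labelled Sox100B-OE (limma adjusted p up to 0.0156 and 0.0181). With 1 library left out, 1 to 3 members of the list were called higher and 1 to 3 lower. The call of mirr was lost without Sox100B-RNAi replicate 1 or 3 (adjusted p up to 0.0103). Fer1, phyl and hbn passed the filter on low values only through the Sox100B-RNAi libraries, so they could only fall. In turn mirr passed it only through the libraries labelled Sox100B-OE and could only rise.

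The genes for making and releasing peptide hormones that were called were higher in the libraries labelled Sox100B-OE. Of the 16 tested on this list, 6 rose and 0 fell (37.5% and 0%, against 10.5% and 5.56% of all features). The median log2 fold change was 0.80 against -0.04 for all features. Fold changes were below 0 for 2 members, both at an unadjusted limma p below 0.05. amon, the prohormone convertase that cuts hormone precursors, was at 51.6, 58.5 and 53.6 RPKM in the libraries labelled Sox100B-OE and 10.9, 9.93 and 6.80 RPKM in the Sox100B-RNAi libraries. The 3 values of each group were close together and the groups far apart, with a change of 2.46 on the log2 scale (SE 0.22, adjusted p = 9.53e-05 by limma). Its chaperone 7B2 was at 155, 179.7 and 206 against 46.7, 85.7 and 53.4 RPKM (log2 fold change 1.56, limma adjusted p = 0.00269). The synaptotagmin genes Sytbeta and Syt4, which encode calcium sensors of vesicle fusion, were at 20.4, 28.9 and 25.5 against 5.24, 6.20 and 3.40 RPKM and at 3.46, 3.90 and 4.34 against 0.359, 0.297 and 0.132 RPKM, with log2 fold changes of 2.14 and 1.96. Syt4 passed the filter on low values only through the libraries labelled Sox100B-OE, so it could only rise. It was not tested when 1 of those libraries was left out. The carboxypeptidase gene svr and the amidating lyase gene Pal2 made up the 6, both overlapped by genes on the opposite strand, at log2 fold changes of 1.38 and 1.51. Leaving out a library labelled Sox100B-OE left 2 or 3 of the 6 calls and leaving out Sox100B-RNAi replicate 3 left 3, and the calls of 7B2 and svr were lost in each of these 4 cases (adjusted p up to 0.0179 and 0.0160). Without Sox100B-RNAi replicate 2, 8 members were called higher, and without replicate 1 of that group 1 member was called lower.

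Voltage-gated ion channel genes rose more often than any other list with 9 or more members tested. Of 14 tested, 9 were higher and 0 lower (64.3% and 0%, against 10.5% and 5.56% of all features), and the median log2 fold change was 1.20. cac, which encodes the pore of a presynaptic calcium channel, was at 14.2, 11.1 and 13.4 against 1.01, 1.31 and 0.904 RPKM, with a change of 2.74 on the log2 scale (SE 0.19, adjusted p = 2.29e-05 by limma). Ih, the cyclic nucleotide-gated cation channel, was at 25.7, 32.2 and 31.8 against 7.03, 6.33 and 8.49 RPKM (log2 fold change 1.90), and the T-type calcium channel gene Ca-alpha1T was at 2.998, 3.22 and 4.04 against 0.337, 0.526 and 0.334 RPKM (log2 fold change 1.65). The potassium channel genes slo, SK and Shal, named after their values were seen, also rose, by 1.50, 1.34 and 1.40, all from under 1 RPKM in the Sox100B-RNAi libraries. slo, SK, Shal and Ca-alpha1T passed the filter on low values only through the libraries labelled Sox100B-OE, so they could only rise. All 14 fold changes were above 0, a count that such entry favours. The summed level of the list was 110 to 120 RPKM in the libraries labelled Sox100B-OE and 35.9 to 38.4 RPKM in the Sox100B-RNAi libraries. Without any one library labelled Sox100B-OE 3 members were called, and slo, SK, Shal and Ca-alpha1T were then not tested. A filter at 3.5 RPKM also left 3 calls. Of the neuron markers, elav overlapped between the groups at 4.53, 4.78 and 4.02 against 5.61, 3.86 and 4.45 RPKM. nSyb did not overlap, at 7.31, 8.59 and 9.89 against 4.07, 6.74 and 4.14 RPKM. limma called 0 of the 4 members tested, with 3 above 0 in fold change at an unadjusted p below 0.05. Their median log2 fold change was 0.71, and in some alternatives up to 2 were called higher.

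The cell cycle and replication genes that changed were lower in the libraries labelled Sox100B-OE. Of 37 tested, 0 rose and 14 fell (0% and 37.8%, against 10.5% and 5.56% of all features). Fold changes were below 0 for 34, and the median was -1.01. CycB, the mitotic cyclin B gene, was at 3.08, 1.57 and 1.17 RPKM against 9.32, 14.4 and 19.4 RPKM in the Sox100B-RNAi libraries, with a change of -2.38 on the log2 scale (SE 0.32, adjusted p = 7.86e-04 by limma). Mcm6, a subunit of the replicative helicase, was at 3.82, 2.68 and 3.03 against 15.98, 13.9 and 24.6 RPKM, with a change of -2.17 on the log2 scale (SE 0.25, adjusted p = 3.38e-04 by limma). RnrS, a ribonucleotide reductase subunit, was at 17.7, 17.1 and 20.5 against 43.02, 65.7 and 107 RPKM, and tum, a cytokinesis gene, was at 0.686, 0.954 and 0.931 against 3.13, 6.98 and 9.95 RPKM (log2 fold changes -1.82 and -1.94). In each of these 4 genes the Sox100B-RNAi replicate 3 was the highest library. PCNA, the replication clamp gene, overlapped between the groups at 18.6, 42.1 and 40.00 against 32.2, 62.6 and 70.7 RPKM. The number of members called lower was 6 without Sox100B-OE replicate 1, 3 without replicate 2 and 3 without replicate 3 of that group, 9 without Sox100B-RNAi replicate 2, 6 without Sox100B-RNAi replicate 3 and 5 without a filter, and RnrS and tum were among those that lost the call without any one library labelled Sox100B-OE.

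**Figure D3:**
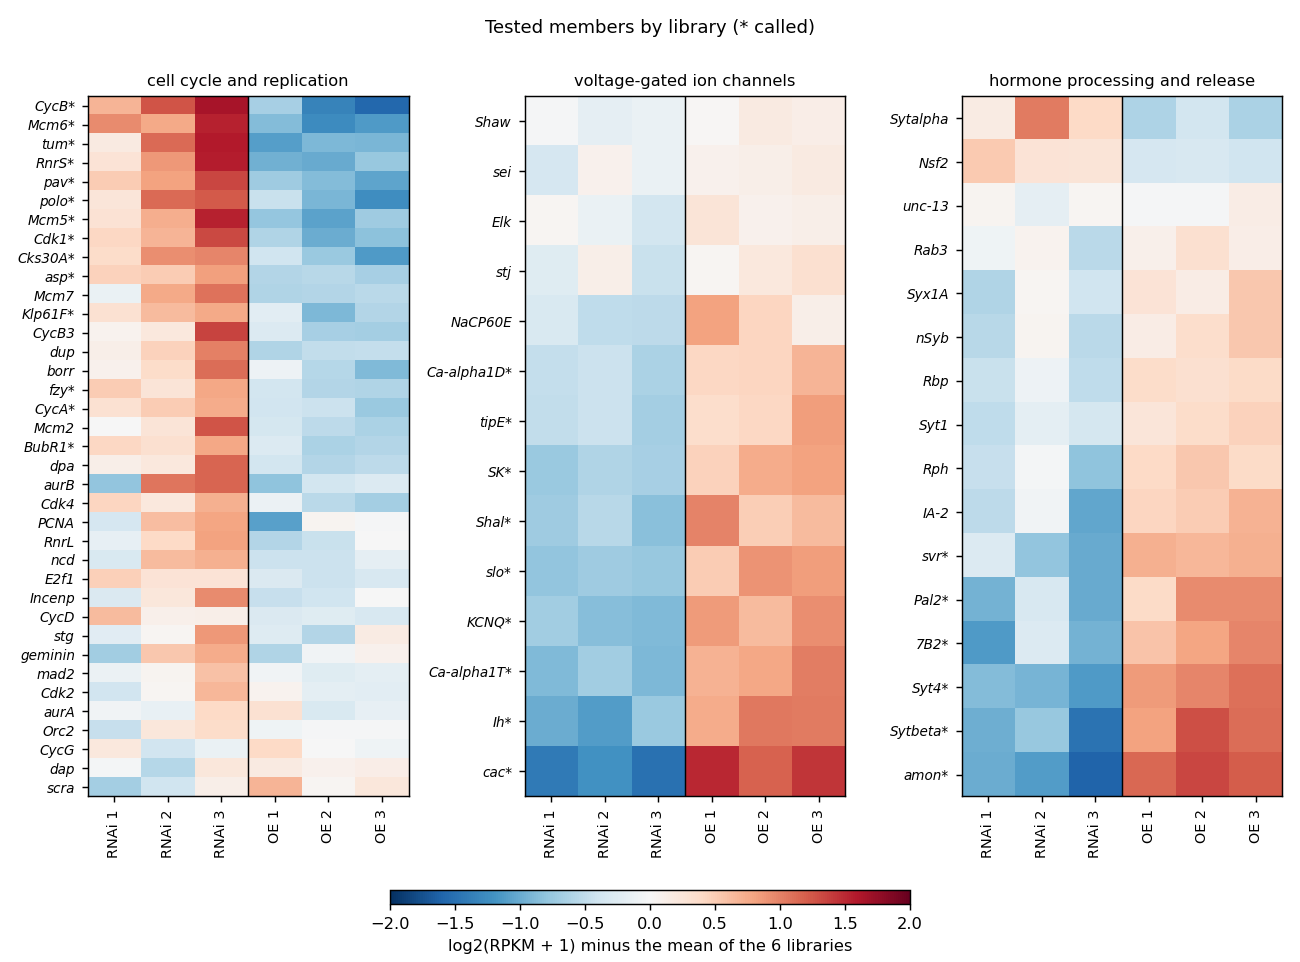
log2(RPKM + 1) minus the mean of the 6 libraries, for the tested members of 3 lists (rows) in each library (columns), ordered by fold change, with called members starred. The 37 cell cycle genes are mostly lower in the libraries labelled Sox100B-OE, and the 14 ion channel genes and most of the 16 hormone processing and release genes are higher there.

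Among stem cell and enteroblast genes 1 of 14 tested rose and 1 fell, 7.14% each, near the 10.5% and 5.56% of all features. Delta (FBgn0000463; 3R, 19302731 to 19326217), the stem cell ligand of Notch, was nearly equal in the libraries labelled Sox100B-OE, at 3.65, 3.68 and 3.57 RPKM, and varied at 30.98, 20.2 and 72.1 RPKM in the Sox100B-RNAi libraries. The groups were well apart, with a change of -2.99 on the log2 scale (SE 0.40, adjusted p = 8.00e-04 by limma). Tre1, a G protein-coupled receptor, rose from 40.4, 43.7 and 68.2 to 180.00, 125 and 145 RPKM (log2 fold change 1.57, limma adjusted p = 0.00244), a call lost without Sox100B-OE replicate 1 or 3 (adjusted p up to 0.0159). klu, a zinc finger gene of enteroblasts, was at 49.3, 53.6 and 50.9 against 34.6, 18.2 and 15.8 RPKM and missed the threshold (adjusted p = 0.0140 by limma). It was called under 4 alternatives, with the replicate block, with array weights, in a fit of all 17 libraries and without Sox100B-RNAi replicate 1 (adjusted p down to 0.00108). mira, an adaptor for asymmetric division, overlapped at 6.002, 6.57 and 4.47 against 6.96, 2.31 and 7.47 RPKM.

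The Notch list, which shares Delta with the stem cell list, had 3 of 24 members higher and 3 lower, 12.5% each against 10.5% and 5.56% of all features. E(spl)m8-HLH, a transcriptional target of Notch, was at 0.227, 0 and 0.764 against 10.8, 9.70 and 10.04 RPKM, with a change of -3.11 on the log2 scale (SE 0.23, adjusted p = 3.71e-05 by limma). The targets E(spl)mbeta-HLH and E(spl)m3-HLH stayed abundant and were not called, at 439.5, 464 and 619 against 818, 655 and 822 RPKM and at 285, 325 and 285 against 901, 218 and 404 RPKM. fng, a glycosyltransferase that modifies the Notch receptor, was at 52.9, 32.8 and 34.4 against 3.55, 3.10 and 2.34 RPKM, a rise of 3.34 (SE 0.24). fng overlaps CG10589 on the opposite strand, so that its reads cannot be assigned with certainty. kuz also rose, at 81.6, 59.1 and 48.1 against 27.6, 26.3 and 22.1 RPKM (log2 fold change 1.25, limma adjusted p = 0.00495). It shares exonic bases with other features on its own strand. The kuz call was lost under 7 alternatives (limma adjusted p up to 0.0596). Leaving out 1 library in turn left 1 to 3 members called higher and 1 or 2 lower.

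Of 21 EGF receptor signalling genes tested, 4 were higher in the libraries labelled Sox100B-OE (19.0%, against 10.5% of all features) and 0 lower. vn (FBgn0003984; 3L, 5813338 to 5845664), a neuregulin-like ligand, was at 74.1, 48.6 and 44.1 RPKM in the libraries labelled Sox100B-OE and 2.47, 1.94 and 0.792 RPKM in the Sox100B-RNAi libraries. aos, the secreted inhibitor that the pathway is known to induce, was at 28.9, 19.7 and 16.7 against 1.29, 1.50 and 1.01 RPKM. Both genes were many-fold apart between groups, with log2 fold changes of 4.39 (SE 0.30) and 3.30 (SE 0.24) at limma adjusted p = 2.47e-05 and 3.02e-05. rl, the MAP kinase ERK, was at 13.4, 12.3 and 9.83 against 5.23, 3.30 and 3.23 RPKM (log2 fold change 1.40, limma adjusted p = 0.00222). The receptor gene Egfr was at 3.62, 2.77 and 3.27 against 10.8, 3.98 and 22.4 RPKM, lower in each library labelled Sox100B-OE but not called (adjusted p = 0.0553). It was called without Sox100B-RNAi replicate 2, at -1.99 (adjusted p = 0.00243 by limma), and without replicate 2 or 3 of that group 1 member of the list was called lower. Leaving out Sox100B-OE replicate 1 or 2, or Sox100B-RNAi replicate 3, left 2 or 3 members called higher and ended the call of rl (adjusted p up to 0.0149).

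In the JAK/STAT list 2 of 9 tested members fell and 0 rose (22.2% and 0%, against 5.56% and 10.5% of all features). upd2, a cytokine that activates the receptor, was at 15.2, 4.53 and 5.45 against 66.7, 40.2 and 69.5 RPKM, with a change of -2.80 on the log2 scale (SE 0.41, adjusted p = 0.00130 by limma). Socs36E, an inhibitor of the pathway that it is known to induce, was at 144, 114 and 88.3 against 406, 203 and 313 RPKM. Its groups did not overlap, but its call (log2 fold change -1.38, limma adjusted p = 0.00905) was lost under 10 alternatives, among them each single library left out except Sox100B-RNAi replicate 2, with adjusted p up to 0.0740. The cytokine upd3 overlapped, at 57.4, 33.02 and 31.97 against 95.9, 99.7 and 55.3 RPKM. From the insulin and TOR list 1 of 17 tested fell (5.88%, near the 5.56% of all features) and 0 rose. The gene was ImpL2, which encodes a secreted binder of insulin-like peptides, at 5.01, 8.11 and 9.78 against 72.1, 244 and 88.7 RPKM (log2 fold change -3.80). ImpL2 shares exonic bases with CG46460 on the same strand.

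Other pathways held few calls. In the Wingless list 1 of 15 tested rose, the receptor gene fz, at 7.80, 8.50 and 8.27 against 3.43, 3.33 and 3.32 RPKM. In the BMP list 1 of 11 rose, the receptor gene wit, and in the Hippo list 1 of 14, the scaffold gene kibra, at log2 fold changes of 1.52 and 1.20. The gene dib on the opposite strand overlaps wit. None of these 3 lists had a member that fell. The share of each list that rose was below the 10.5% of all features. Without Sox100B-OE replicate 1 or 3 the calls of fz and kibra were lost (adjusted p up to 0.0139 for kibra), and that of fz was also lost without replicate 2 and in a fit of all 17 libraries (adjusted p up to 0.0819).

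**Figure D4:**
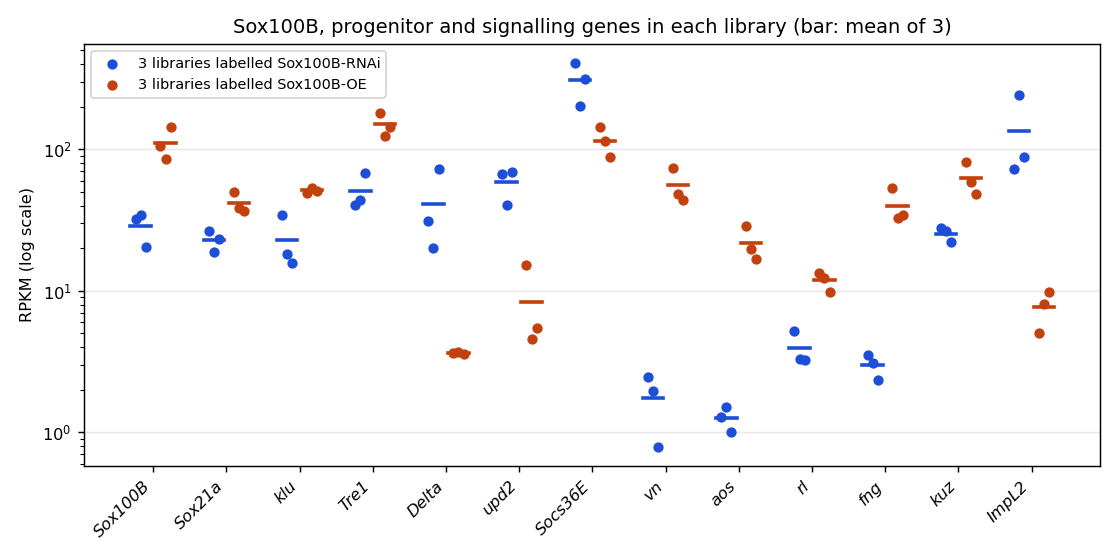
RPKM (log scale) of Sox100B and of progenitor and signalling genes in each library, blue for Sox100B-RNAi and dark orange for libraries labelled Sox100B-OE, with a bar at the mean of 3. Delta, upd2, Socs36E and ImpL2 lie lower and vn, aos, rl, fng and kuz higher in the libraries labelled Sox100B-OE, and vn stands at 44.1 to 74.1 RPKM against 0.792 to 2.47 RPKM.

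Basement membrane genes were among the lists with the highest share of rises. Of the 11 tested members of the integrin and basement membrane list, 5 were higher and 0 lower (45.5% and 0%, against 10.5% and 5.56% of all features). SPARC (FBgn0026562; 3R, 26869238 to 26871995), a collagen-binding matrix glycoprotein, was at 91.3, 106 and 198 RPKM in the libraries labelled Sox100B-OE and at 0.309, 1.12 and 0.396 RPKM in the Sox100B-RNAi libraries. It was close to absent in the latter, with a change of 6.32 on the log2 scale (SE 0.33, adjusted p = 6.00e-06 by limma). Col4a1 and vkg, the collagen IV chains, were at 4.44, 5.62 and 7.94 against 0.0121, 0.0816 and 0.0221 RPKM and at 1.07, 1.56 and 1.49 against 0.183, 0.155 and 0.209 RPKM. These collagen genes passed the filter on low values only through the libraries labelled Sox100B-OE, so they could only rise. The laminin genes LanB2 and wb were at 23.2, 31.2 and 27.9 against 4.22, 7.68 and 8.43 RPKM and at 9.54, 8.92 and 6.63 against 2.22, 1.63 and 1.37 RPKM, with log2 fold changes of 1.91 and 1.77. LanA and LanB1, other laminin chains, and the integrin gene mys were not called. Haemocytes and fat body are known sources of these matrix proteins. The summed level of the fat body list was also higher in the libraries labelled Sox100B-OE, as given above. Its 1 tested member, apolpp, was called higher, at 2.33, 3.33 and 1.97 against 0.515, 0.894 and 0.882 RPKM (limma adjusted p = 0.00661). Exonic bases of apolpp overlap other features on the opposite strand. The listed markers Lsp2 and Fbp1 were at most 0.0450 and 0.123 RPKM, and the haemocyte markers Hml and NimC1 at most 0.0682 and 0.0764 RPKM in every library. The part of other cells in the result was not tested. Without any one library labelled Sox100B-OE 3 members were called, and Col4a1 and vkg were then not tested.

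Genes of detoxification changed in both directions. Of the 49 cytochrome P450 genes tested, 15 rose and 3 fell, and of the 23 UDP-glycosyltransferase genes 8 rose and 5 fell. The shares that rose were 30.6% and 34.8% against 10.5% of all features, and those that fell were 6.12% and 21.7% against 5.56%, so that the P450 genes fell about as often as all features. Cyp4ac3 was at 10.8, 15.7 and 14.6 against 0.116, 0.0783 and 0.0424 RPKM and Cyp6t1 at 29.04, 32.3 and 32.7 against 1.42, 2.68 and 2.40 RPKM, both apart by more than 3 on the log2 scale. Ugt35A1 rose from 6.57, 8.10 and 5.25 to 118, 121 and 113 RPKM (log2 fold change 3.96, SE 0.21). The neighbouring genes Ugt36F1 (2L, 18819344 to 18822573) and Ugt36D1 (2L, 18823548 to 18826716) went the other way. Ugt36F1 was at 0.0519, 0.0685 and 0.127 against 20.1, 43.8 and 13.6 RPKM and Ugt36D1 at 0.479, 0.430 and 0.329 against 18.6, 28.3 and 12.1 RPKM, so that both were under 1 RPKM in each library labelled Sox100B-OE. Without any one library labelled Sox100B-OE 5 to 7 of the P450 genes and 2 or 3 of the glycosyltransferase genes were called higher, and 4 of the latter without Sox100B-RNAi replicate 3. With 1 library left out, 2 or 3 of the glycosyltransferase genes were called lower.

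Of the 32 glutathione S-transferase genes tested 4 rose and 1 fell (12.5% and 3.13%, near the 10.5% and 5.56% of all features). The 4 were GstE6 and the adjacent cluster members GstD5, GstD6 and GstD7 on 3R. GstD7 was at 18.8, 41.6 and 30.5 against 0.197, 2.05 and 0.585 RPKM, with a change of 4.06 on the log2 scale (SE 0.39, adjusted p = 1.40e-04 by limma), and GstD6 at 6.82, 14.9 and 12.3 against 1.43, 1.77 and 0.741 RPKM (log2 fold change 2.38). Genes of near-identical sequence can share reads, so the division within the cluster is uncertain. With 1 library left out, 2 to 5 of these genes were called higher. Irc, a secreted catalase of gut immunity, was at 91.3, 71.2 and 91.4 against 0.902, 3.19 and 1.58 RPKM, a rise of 4.96 (SE 0.30), whereas Gclm, a subunit of the enzyme that makes glutathione, fell by 1.35 (limma adjusted p = 0.00403). The Gclm call was lost without Sox100B-OE replicate 1 or 2 and without Sox100B-RNAi replicate 2 or 3 (adjusted p up to 0.0249).

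The metallothionein genes, whose products bind copper and zinc, diverged. MtnA (FBgn0002868; 3R, 9783407 to 9784370) was at 35.96, 90.2 and 116 RPKM in the libraries labelled Sox100B-OE and 1439, 2649.7 and 2145 RPKM in the Sox100B-RNAi libraries, with a change of -4.78 on the log2 scale (SE 0.42, adjusted p = 9.53e-05 by limma). MtnB (FBgn0002869; 3R, 20503102 to 20503746) was at 58.2, 134 and 115 against 16.5, 26.6 and 21.1 RPKM, with a change of 2.15 on the log2 scale (SE 0.33, adjusted p = 0.00177 by limma), a call lost without Sox100B-OE replicate 3 or Sox100B-RNAi replicate 3 and in a fit of all 17 libraries (adjusted p up to 0.111). Ctr1B, a copper importer whose exonic bases overlap another feature on its own strand, fell with MtnA, from 31.1, 17.2 and 40.97 to 3.30, 5.25 and 5.44 RPKM. Another pair of related genes also diverged. Npc2a and Npc2b, which encode sterol-binding proteins, were at 264, 388 and 547 against 16.6, 24.1 and 14.7 RPKM and at 20.5, 11.5 and 30.3 against 184, 336 and 179 RPKM. Their log2 fold changes were 4.33 (SE 0.30) and -3.46 (SE 0.37). Npc2b (3R, 14089517 to 14092425) lies beside CCHa1, which fell as well.

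Digestive enzyme genes showed few calls. Of the 9 trypsin genes tested 1 fell (11.1%, against 5.56% of all features) and 0 rose, while 6 fold changes were above 0 and the median was 0.80. This gene was kappaTry, at 2.002, 3.81 and 13.1 against 57.1, 72.4 and 112 RPKM. Of the 12 Jonah protease genes limma called 0 in either direction, with 2 at an unadjusted p below 0.05. Fold changes were above 0 for 11 of them, with a median of 1.09 against -0.04 for all features. Jon65Aiv, the most abundant of them, was at 53.4, 285 and 210.2 against 84.2, 32.9 and 573 RPKM and overlapped. In the amylase and maltase list 1 of 10 rose and 1 fell, while 7 fold changes were above 0 and the median was 0.81. The maltase gene Mal-A7 rose, at 15.98, 11.6 and 19.8 against 4.42, 2.02 and 6.50 RPKM (log2 fold change 1.73), a call lost under 6 alternatives, among them each library labelled Sox100B-OE left out (adjusted p up to 0.177). Amyrel, an amylase-related gene, fell and was at 0.254, 2.90 and 2.28 against 23.9, 30.1 and 45.7 RPKM (log2 fold change -3.71), and gprs on the opposite strand overlaps its exon. The enterocyte factor and brush border list had 2 of 9 tested members higher and 1 lower (22.2% and 11.1%, against 10.5% and 5.56% of all features). The brush border myosin gene Myo31DF rose from 43.6, 53.97 and 28.2 to 165, 101 and 103 RPKM and Myo28B1 fell from 45.99, 71.5 and 40.3 to 11.9, 11.2 and 10.02 RPKM. Both overlap genes on the opposite strand, and the Myo31DF call was lost without a filter, under median-of-ratios scaling and without each single library except Sox100B-RNAi replicate 2 (adjusted p up to 0.0263).

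Housekeeping groups held few calls or none. None of the 77 cytosolic ribosomal protein genes, 31 proteasome genes, 13 glycolysis genes or 18 genes of protein folding in the endoplasmic reticulum was called by limma, and 2, 1, 5 and 5 of them had an unadjusted p below 0.05. Their median log2 fold changes were -0.02, 0.0045, -0.09 and 0.13, and that of the proteasome list was below 0 under each other scaling (-0.09 to -0.01). The 68 nuclear genes of respiratory chain subunits and the 71 mitochondrial ribosomal protein genes each had medians below 0, at -0.59 and -0.67, with 66 of the 68 and 68 of the 71 fold changes negative, but only 1 and 3 were called lower and 1 and 1 higher. Without Sox100B-RNAi replicate 1, the library with the largest mitochondrial share, 15 and 21 were called lower, against 0 or 1 and 1 without any other library. Of the 33 features of the mitochondrial genome 1 rose and 5 fell (3.03% and 15.2%, against 10.5% and 5.56% of all features), all 6 of them tRNA genes. mt:tRNA:Leu-TAG was at 3413, 1819.7 and 2492 RPKM against 37844, 19168 and 19547 RPKM (log2 fold change -3.28, limma adjusted p = 1.72e-04).

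Of 217 long noncoding RNAs tested, 44 were higher (20.3%) and 22 lower (10.1%), against 10.5% and 5.56% of all features. The most abundant was lncRNA:CR40469 (X, 122493 to 122706), named here after its value was seen, at 33192, 37503 and 47115 RPKM in the libraries labelled Sox100B-OE and 5609, 6405 and 6092 RPKM in the Sox100B-RNAi libraries. The groups were far apart, with a change of 2.69 on the log2 scale (SE 0.19, adjusted p = 3.02e-05 by limma). Without any one library labelled Sox100B-OE 7 to 9 were called higher and 9 to 11 lower, and without Sox100B-RNAi replicate 3 the counts were 22 and 9. Without Sox100B-RNAi replicate 2, 14 were called lower. The call of lncRNA:CR40469 itself was lost in a fit of all 17 libraries (adjusted p = 0.0465).

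**Figure D5:**
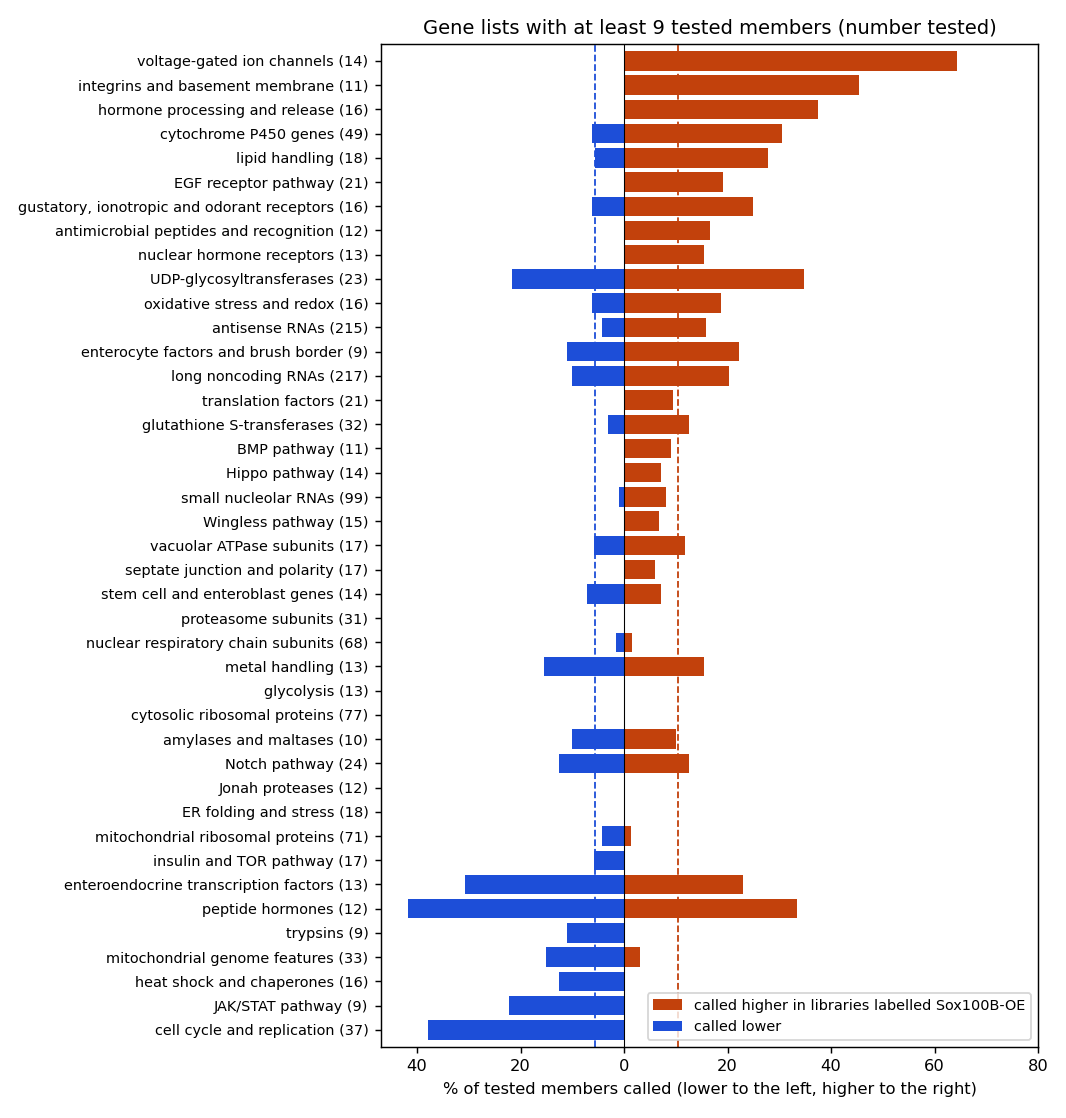
Share of tested members called higher (orange, to the right) and lower (blue, to the left) in the libraries labelled Sox100B-OE, for lists with at least 9 tested members (number tested in brackets). Dashed lines mark the 10.5% and 5.56% of all 8849 features, and lists are ordered by the share higher minus the share lower, with ion channels (9 of 14 higher) at the top and cell cycle genes (14 of 37 lower) at the bottom. Peptide hormones (5 of 12) have the largest share lower.

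The largest rises were led by genes that were almost silent in the Sox100B-RNAi libraries. CG8157 (FBgn0034010; 2R, 15325503 to 15326386) was at 395, 579 and 572 against 0.451, 0.254 and 0.124 RPKM, with a change of 8.65 on the log2 scale (SE 0.23, adjusted p = 5.59e-07 by limma). CG31997 (FBgn0051997; chromosome 4, 154654 to 156060) was at 153, 290.3 and 209 against 0.561, 0.460 and 0.233 RPKM, and bero (FBgn0032897; 2L, 20858695 to 20861014), a membrane-anchored Ly6-type protein gene, was at 172, 193 and 256 against 0.601, 0.730 and 0.212 RPKM. These 3 genes rose by more than 7 on the log2 scale. Below them came CG17145 (log2 fold change 6.72), CG11893 (6.55), CG14687 (6.35), SPARC, CG43294 (6.32), CG10553 (6.21), Ect3 (5.86), CG34253 (5.79) and lncRNA:alphagamma-element:CR32865 (5.75), all with a limma adjusted p of 9.69e-05 or less. Ect3, a beta-galactosidase-related gene (3R, 11999278 to 12003516), lies inside the span of Tk (3R, 11994175 to 12005473), which also rose. CG43294 overlaps prc, the gene of the matrix protein pericardin, on the opposite strand, and prc rose by 5.29. CG8157, CG34253 and lncRNA:alphagamma-element:CR32865 also share exonic bases with other annotated features.

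In all, 39 called features were under 1 RPKM in every Sox100B-RNAi library and at 10 RPKM or more in every library labelled Sox100B-OE, and 4 showed the opposite pattern. The 4 were ect, lncRNA:CR44538, Ugt36F1 and Ugt36D1. ect (3L, 10190276 to 10201837) was at 0.327, 0.569 and 0.6999 against 48.9, 51.2 and 51.00 RPKM, and lncRNA:CR44538 (3L, 10205620 to 10206401) next to it was at 0.394, 0.866 and 0.402 against 18.8, 136 and 23.1 RPKM. The largest fall was that of FBgn0040813, an identifier without a symbol in the annotation used, at 4.86, 15.2 and 18.3 against 2762, 2523 and 3458 RPKM, with a change of -7.88 on the log2 scale (SE 0.42, adjusted p = 6.38e-06 by limma). Cpr51A (FBgn0033942; 2R, 14512559 to 14515211), a chitin-binding cuticle protein gene, was at 5.76, 8.75 and 18.6 against 850.3, 731 and 1068 RPKM, with a change of -6.32 on the log2 scale (SE 0.37, adjusted p = 9.48e-06 by limma). GILT2, a lysosomal thiol reductase gene, and Ance, an angiotensin-converting enzyme gene, fell to 2.27, 4.85 and 6.38 and to 4.16, 3.45 and 13.02 RPKM from 104, 121 and 114 and 98.8, 138 and 214 RPKM. The other large falls were those of mt:tRNA:His-GTG (log2 fold change -4.70) and lncRNA:CR44145 (-4.60).

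Wild type cell types give a scale for these levels. Features free of exonic overlap with other genes, that reached 3.5 RPKM in wild type EEs and that were at least 5-fold above both other wild type groups numbered 422, of which 295 were tested. Of these, 79 (26.8%) rose and 44 (14.9%) fell, against 11.7% and 6.69% of the 4588 nuclear features tested that share no exonic base. The corresponding progenitor group had 40 features tested with 4 higher and 7 lower (10% and 17.5%). The group labelled EC had 42 tested with 4 higher and 6 lower (9.52% and 14.3%). EE-enriched genes were thus called in both directions, and their share lower was near that of the progenitor and EC groups. Without any one library labelled Sox100B-OE 22 to 27 of the EE-enriched features were called higher and 21 to 30 lower, and without Sox100B-RNAi replicate 3 the counts were 57 and 23. Without Sox100B-RNAi replicate 1 or 2, 28 were called lower. With 1 library left out, 0 to 7 of the progenitor features were called higher and 2 to 5 lower, and 2 to 4 and 1 to 7 of those of the group labelled EC.

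Side by side with wild type progenitors, some genes stood apart mainly in the libraries labelled Sox100B-OE and others mainly in the Sox100B-RNAi libraries. The 5 wild type progenitor libraries spanned 3589 to 6769 RPKM for NPF, above each Sox100B-RNAi library and overlapping the lowest library labelled Sox100B-OE. For AstA they spanned 13.02 to 127 RPKM and for CCHa1 29.96 to 165 RPKM, below each Sox100B-RNAi library in both cases. For Delta they spanned 5.48 to 12.5 RPKM, between the groups, and for vn 0.786 to 5.26 RPKM, far below the libraries labelled Sox100B-OE. MtnA was at 106 to 226 RPKM and Cpr51A at 140 to 341 RPKM in wild type progenitors, both well under the Sox100B-RNAi libraries. CG31997, near 0 in wild type progenitors at 0.509 to 1.70 RPKM, was at 117 to 183 RPKM in wild type EEs.

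The same was counted over the called nuclear features without shared exonic bases, after all libraries were rescaled to the total of such features. Of 535 that rose, the median of the libraries labelled Sox100B-OE was above the wild type progenitor range and that of Sox100B-RNAi within it for 229, and the first was above and the second below it for 167. For 66 the first was within and the second below. Of 307 that fell, the median of the libraries labelled Sox100B-OE was below and that of Sox100B-RNAi within the range for 104, the first was below and the second above it for 85, and the first was within and the second above for 79. Because the wild type libraries were tabulated in another way, these positions cannot separate treatment from batch.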

How the data were processed

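RNA of sorted midgut cells was sequenced in 17 libraries, of which the 3 labelled Sox100B-OE and the 3 labelled Sox100B-RNAi were compared here. Expression came from 1 deposited table that gives 17490 features as RPKM, a read count scaled to gene length and library depth, in a column for each library. The submitters' processing notes name STAR, featureCounts 1.6.3, DESeq2 and the build BDGP6, without saying which step gave the values, and the strand setting is not given in the sources used here. Symbols, positions and exonic lengths came from the Ensembl annotation of BDGP6, which matched 17216 features and left 274 unmatched, and listed symbols without a match were not analysed here. Multiplied by exonic length, low RPKM values fell within 0.05 of whole multiples of 1 step for 98.0 to 98.4% of them in the 6 libraries. The step gave the implied depth, and 3 reads at that depth equal 1.08e-05 to 1.82e-05% of the assigned reads. Such limits cover counting error only, since amplified reads without molecular identifiers are not independent molecules.

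On the log2(RPKM + 1) scale, a linear model with trended empirical Bayes moderation was fitted by limma 3.58.1 (R 4.3.3) to every feature that reached 1 RPKM in 3 or more of the 6 libraries. Tests were 2-sided with Benjamini-Hochberg adjustment over all features tested. A call required an adjusted p of less than 0.01 and a log2 fold change beyond 0.5 either way. Errors are limma standard errors (SE). The procedure was tested on simulated data. Gene lists were described by counts of called members and by the median fold change, with no set test. The members and lists were chosen with earlier results of these data known. Named genes are the 12 largest rises and 12 largest falls, Sox100B, AstA and NPF, and up to 4 called members per list by size of change, or the 2 most abundant where none was called. A further 35 genes, among them the remaining hormones, were named after their values were seen, as were a few others given beside them. Wild type levels were set beside the results for features without shared exonic bases only. Alternatives were another pseudocount, other filters, scalings, thresholds and weights, a replicate block, a fit of all 17 libraries, leaving out each library, and, added after seeing the data, a fit of nuclear features without shared exonic bases.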

Additional observations from a re-analysis of the deposited data

How the results depend on the processing

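Sox100B kept its direction and its call in every alternative run. Its log2 fold change was 1.69 to 2.09 when each library was left out in turn. Leaving out each library gave 509 to 1282 calls in place of 1419, of which 316 to 883 were higher and 191 to 515 lower, and 115 to 271 in place of 283 called members over all lists. With a library labelled Sox100B-OE left out, 1124 of the 1419 called features still passed the filter. Without a filter 307 features were called lower in place of 492. At an adjusted p below 0.05 there were 2561 calls, 1434 higher and 1127 lower. The fit of nuclear features without shared exonic bases, chosen after seeing the data, tested 4588 features and gave 796 calls, 510 higher and 286 lower, with 149 called list members. Higher calls were 65.3% of the calls and 56.0% under scaling to nuclear reads, which moved the median log2 fold change from -0.04 to -0.13.

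Whether the replicate numbers pair the libraries was not settled. Deviations of same-numbered libraries from their group means correlated at 0.36, 0.04 and 0.18, and those of different-numbered libraries at -0.31 to 0.13. Sox100B-OE replicate 2 correlated better with Sox100B-RNAi replicate 3 (0.07) than with its own number. A fit with the replicate number as a block gave 1662 calls, 1051 higher and 611 lower, with 334 called list members and a Sox100B change of 1.91.

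Of 158 named genes that were called, 105 kept the call in every alternative in which they were tested, 53 lost it in at least 1, 33 of them without a filter, and 0 changed direction. Of the 31 named genes not called, 4 were called in some alternative, CCAP, Egfr, klu and LysX, the last without Sox100B-RNAi replicate 1 at -3.01 (adjusted p = 0.00866 by limma), and 9 changed sign in some alternative, for which the cause was not tested. CAH1 was at -0.0082 under scaling to nuclear reads and -0.087 with array weights, and elav at 0.019 with array weights. Over the libraries left out in turn, the log2 fold change ran from -0.67 to 0.69 for CAH1, -0.14 to 0.078 for elav, -0.019 to 0.24 for Eno, -0.74 to 1.20 for Jon65Aiii, -0.57 to 1.47 for Jon65Aiv, -0.20 to 0.055 for Prosalpha7, -0.017 to 0.39 for Sxl, -0.067 to 0.62 for lab and -0.31 to 0.37 for mira. The size of a change is least certain for genes under 1 RPKM in a group, where the pseudocount sets it.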

Other observations

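Of the 39 features under 1 RPKM in every Sox100B-RNAi library and at 10 RPKM or more in every library labelled Sox100B-OE, 27 share no exonic base with another gene. Of these 27, 13 were under 1 RPKM in each of the 5 wild type progenitor libraries and 4, CG7991, CG16959, CG42561 and CG43402, in all 11 wild type libraries. CG5002, CG11893 and CG31997 were at 10 RPKM or more in each of the 3 wild type EE libraries, and none of the 27 reached 10 RPKM in any wild type progenitor library.

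Calls were spread over the chromosome arms. On 2L, 137 of 1507 tested features rose and 111 fell, on 2R 216 and 98 of 1841, on 3L 196 and 90 of 1678, on 3R 223 and 116 of 2159, and on X 135 and 64 of 1398. Over all features 10.5% rose and 5.56% fell. Of 51 pseudogenes tested, 11 rose and 5 fell (21.6% and 9.80%), and of 99 small nucleolar RNA genes 8 rose and 1 fell (8.08% and 1.01%), with 2 to 15 called higher when 1 library was left out. Antisense RNA genes, all of which are hard to tell from their partners without strand, had 34 of 215 higher and 9 lower (15.8% and 4.19%), and 13 to 30 and 2 to 9 when 1 library was left out.

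Of 22 listed receptor genes for peptides and transmitters 7 were tested, and 12 were under 1 RPKM in all 6 libraries. Of the 7 tested, 3 rose and 1 fell (42.9% and 14.3%, against 10.5% and 5.56% of all features). Without any one library labelled Sox100B-OE 1 rose. AstA-R1, a receptor for allatostatin A, was at 0.212, 0.482 and 1.14 RPKM in the libraries labelled Sox100B-OE and at 4.73, 10.7 and 11.1 RPKM in the Sox100B-RNAi libraries, the same direction as its ligand gene. CCHa1-R, the receptor for CCHamide-1, was at 4.71, 6.64 and 6.47 against 0.886, 1.32 and 0.476 RPKM, the opposite direction to its ligand gene. Their log2 fold changes were -2.58 (SE 0.33) and 1.89 (SE 0.22) at limma adjusted p = 0.000665 and 0.000430.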
